A study of Homo sapiens with 6 samples.

Results

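The IFIT genes encode interferon-induced proteins with tetratricopeptide repeats, and the 4 measured here were IFIT1, IFIT2, IFIT3 and IFIT5. Members were the probe sets, that is, groups of array probes summarised to 1 value, whose annotation gave exactly 1 gene symbol equal to one of these names. Each of the 4 genes had a single such probe set, so that no choice between probe sets arose, among 13139 genes with a single-symbol probe set and 19458 probe sets in all. The family was picked out with the difference between the genotypes in these same arrays in view, so its differences are given as a description, and the count of members called in the fit over all probe sets is printed only beside the share of all probe sets called.

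The cells were HCT116, a human colon carcinoma line grown in McCoy's 5A medium with fetal bovine serum, either wild type or lacking BRCA2, a mediator of homologous recombination. In the BRCA2 knockout (BRCA2-/-), both alleles had been disrupted one after the other by homologous recombination, and no drug, interferon or other agent was named for either genotype. Each genotype had 3 arrays, which the labels call technical replicates, so the spread given below is that between arrays and may be technical. The labels give 1 line per genotype, so the absence of BRCA2 cannot be told apart from whatever else distinguishes the 2 lines.

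As background, IFIT transcription is low in resting cells and is switched on by type I and type III interferons through a transcription factor complex that contains IRF9, and for several members directly by IRF3 after viral RNA is sensed. The proteins bind RNA: IFIT1 recognises messenger RNA whose cap lacks 2'-O methylation and blocks its translation, IFIT5 binds RNA with a 5'-triphosphate end, IFIT3 binds and stabilises IFIT1, and IFIT2 forms complexes with both IFIT1 and IFIT3. In epithelial cells the genes are widely used as readouts of an interferon response.

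The proximal promoters are shown because they carry the sequence element through which interferon acts on this family, the interferon-stimulated response element (ISRE). Sequences were drawn from RefSeq (build GRCh38.p14), and the promoters at hand covered 3 of the 4 members, IFIT2 being the exception. The 160 bases before the annotated start are printed on the + strand, 5′ to 3′, for IFIT1 at chr10:89392463-89392622, for IFIT3 at chr10:89327837-89327996 and for IFIT5 at chr10:89414408-89414567. Capitals mark matches to TTTCNNTTTC, the reverse complement of the ISRE core GAAANNGAAA.
IFIT1: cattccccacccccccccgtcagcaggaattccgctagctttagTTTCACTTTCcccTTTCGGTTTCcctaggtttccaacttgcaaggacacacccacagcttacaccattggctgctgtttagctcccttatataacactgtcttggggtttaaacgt
IFIT3: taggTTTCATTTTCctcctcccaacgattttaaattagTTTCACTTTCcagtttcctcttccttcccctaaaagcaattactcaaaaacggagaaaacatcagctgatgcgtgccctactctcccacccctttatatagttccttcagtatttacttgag
IFIT5: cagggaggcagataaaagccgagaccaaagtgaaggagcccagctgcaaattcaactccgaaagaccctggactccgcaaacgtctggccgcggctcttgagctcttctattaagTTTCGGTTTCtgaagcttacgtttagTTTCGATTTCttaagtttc
IFIT1 held 2 matches within 250 bases of its start, lying 116 to 107 and 103 to 94 bases before it. IFIT3 held 2 as well, 156 to 147 and 122 to 113 bases before its start, and its other annotated start was preceded by 2 more, 94 to 85 and 51 to 42 bases upstream. In IFIT5 the 2 matches lay closest to the start, 45 to 36 and 19 to 10 bases before it. The letters TTTCACTTTC occurred upstream of IFIT1 and of both starts of IFIT3, whereas TTTCGGTTTC occurred in IFIT1 and IFIT5. Searched on both strands over the same 250 bases, at least 1 match was present in 3.02% of all 35116 promoters in the table and 2 or more in 0.225%. The window of IFIT1B, a family member between IFIT3 and IFIT1 whose expression was not analysed here, held 0 matches. No match to TTCNNNGAA, the core of the interferon gamma activated site, was found in the 250 bases before the starts of IFIT1, IFIT3 or IFIT5, and 6.57% of all promoters held one. These matches are letters in a window and were not measured as binding sites in these cells.

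The arrays differed in their distributions, which bears on every value below. Array medians on the log2 scale lay between 7.36 and 7.80, wild-type array 1 (7.71) and knockout array 2 (7.80) being the highest. Across probe sets, the correlation of knockout array 2 was 0.924 with wild-type array 1 and 0.903 with wild-type array 3. Its correlations with knockout arrays 1 and 3 were lower (r = 0.876 and 0.893). Knockout array 1 was also closer to wild-type array 2 (r = 0.891) than to knockout array 2. The family's differences are therefore given with and without wild-type array 1 and knockout array 2. BRCA2 itself was not analysed here, and the genotype labels were not checked against it. Of the epithelial markers, EPCAM averaged 9.88 ± 0.36 in the wild type and 10.12 ± 0.32 in the knockout (SD, 3 arrays each), and CDH1, KRT8, KRT18 and KRT19 had wild-type means from 10.29 to 12.35. The intestinal markers CDX2, CDX1, KRT20, CEACAM5 and VIL1 had wild-type means of 7.73, 5.94, 5.93, 5.72 and 5.58 on their own probe sets.

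The first question was how each IFIT transcript differed between the genotypes. IFIT1, IFIT2 and IFIT3 were higher on every knockout array than on any wild-type array, and their genotype means differed by 1.27 to 1.79 on the log2 scale, that is 2.42-fold to 3.45-fold. IFIT5 differed by 0.37 and its arrays overlapped between the genotypes. The values are deposited log2 probe set values, on which a step of 1 is a doubling, and since probe sets differ in their response, only differences and not levels are compared between genes. In RNA from whole cultures, a higher value in every cell and a larger share of cells with a high value cannot be told apart.

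IFIT1, the cap-sensing member, read 6.10, 5.07 and 5.62 in wild type and 6.57, 7.16 and 6.88 in knockout, here and below in the order of array 1, 2 and 3. All knockout arrays lay above all wild-type arrays, the nearest pair being wild-type array 1 and knockout array 1, which were 0.47 apart. The mean went from 5.59 ± 0.51 to 6.87 ± 0.30 (SD, n = 3), a log2 difference of 1.27 ± 0.34 (SE of the fit across all probe sets), or 2.42-fold.

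IFIT2, which partners IFIT1 and IFIT3, read 5.71, 5.57 and 5.40 in wild type and 7.44, 7.15 and 7.45 in knockout. The groups were tight and far apart: the arrays of each genotype spanned no more than 0.30, and 1.45 separated the lowest knockout array from the highest wild-type array. The means were 5.56 ± 0.15 and 7.35 ± 0.17 (SD, n = 3), the difference 1.79 ± 0.25 (SE), or 3.45-fold, the largest of the 4 members.

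IFIT3, the stabiliser of IFIT1, gave 5.01, 3.96 and 5.02 in wild type and 6.21, 6.14 and 6.20 in knockout. The knockout arrays were within 0.08 of each other, while wild-type array 2 lay about 1 log2 unit below the other wild-type arrays, and the groups did not overlap (gap 1.12). The means were 4.66 ± 0.61 and 6.18 ± 0.04 (SD, n = 3), and the difference was 1.52 ± 0.35 (SE), or 2.88-fold. Without wild-type array 2 the difference of IFIT3 was 1.17 ± 0.30 (SE), or 2.25-fold.

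IFIT5, the member that binds triphosphate RNA as a monomer, read 9.34, 8.73 and 8.91 in wild type and 8.90, 9.56 and 9.64 in knockout. Knockout array 1 lay below wild-type arrays 1 and 3, so the genotypes overlapped. The means were 8.99 ± 0.31 and 9.37 ± 0.40 (SD, n = 3), and the difference of 0.37 ± 0.32 (SE), or 1.30-fold, was about as large as its standard error and as the spread between arrays.

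**Figure D1:**
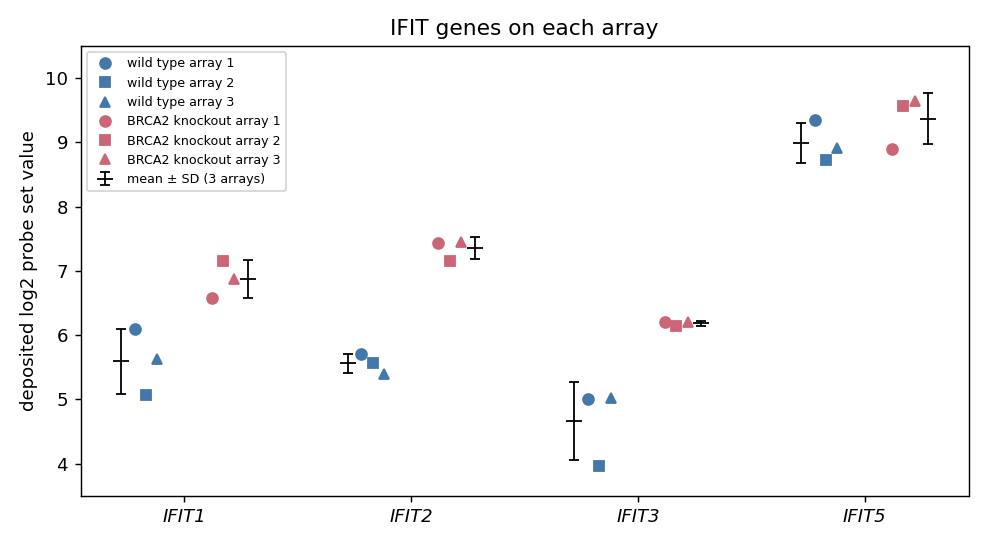
Deposited log2 probe set values (vertical axis) of the 4 IFIT genes on the 3 wild-type and 3 BRCA2 knockout arrays, with the mean ± SD of each genotype in black. Knockout points lie above all wild-type points for IFIT1, IFIT2 and IFIT3, with gaps of 0.47, 1.45 and 1.12, and overlap them for IFIT5.

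Set value against value, each gene gave 9 pairs of 1 knockout and 1 wild-type array. The knockout array was the higher in 9 of 9 pairs for IFIT1, IFIT2 and IFIT3 and in 7 of 9 for IFIT5. Over these pairs the difference ran from 0.47 to 2.09 for IFIT1, from 1.45 to 2.04 for IFIT2, from 1.12 to 2.26 for IFIT3 and from -0.44 to 0.91 for IFIT5. The 9 pairs share arrays and are not independent. All 4 members had a positive difference, where 51.3% of all probe sets did. In all, 3 of 4 members had no overlap with the knockout higher, where 12.0% of all probe sets did. A difference of 1 or more was found in 3 of 4 members and in 4.11% of all probe sets. In limma, with the Benjamini-Hochberg adjustment taken over the whole array, 1 of 4 members, IFIT2, was called higher at the 0.05 threshold, where 0.416% of all probe sets were, and 0 members were with any 1 array left out. Because the family was chosen from this comparison, nothing is read from these counts. The median difference of the 4 members was 1.40, and that of all probe sets was 0.02.

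The family was then compared within itself, by asking whether the gap between a pair of members on the same array shifted between the genotypes. Such a shift does not depend on a constant added to an array, and all 6 pairs of members were compared, without a test. The gap of IFIT2 over IFIT5 shifted by 1.41 ± 0.32 from wild type to knockout (SE from the spread over 3 arrays per genotype), that of IFIT3 over IFIT5 by 1.15 ± 0.35 and that of IFIT1 over IFIT5 by 0.90 ± 0.18. In these 3 pairs the gaps on the knockout arrays did not overlap those on the wild-type arrays. Among IFIT1, IFIT2 and IFIT3 the shifts were -0.51 ± 0.38 for IFIT1 over IFIT2, -0.25 ± 0.25 for IFIT1 over IFIT3 and 0.26 ± 0.38 for IFIT2 over IFIT3, with overlap in each. The order of the differences was thus IFIT2, IFIT3, IFIT1 and IFIT5, of which the first 3 were not separated beyond their spread. Without the 2 arrays of highest median, the shifts against IFIT5 were 1.51, 1.27 and 0.93 for IFIT2, IFIT3 and IFIT1, again without overlap, and that of IFIT1 over IFIT2 (-0.58) no longer overlapped. With 2 arrays per genotype an absence of overlap is common, so nothing is read from it. Among the values of single probe sets, 23.2% had none with the knockout higher and 4685 of 19458 with the knockout lower.

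Within a genotype the members did not all vary together. On wild-type array 2, IFIT1, IFIT3 and IFIT5 lay 0.53, 0.70 and 0.27 below their wild-type means, while IFIT2 lay 0.01 above its own. The median of that array was 0.16 below the mean of the wild-type medians. On knockout array 1, IFIT1 and IFIT5 lay 0.30 and 0.46 below their knockout means, whereas IFIT2 and IFIT3 lay 0.10 and 0.03 above theirs, and the array median was 0.13 lower than the knockout mean of medians. On knockout array 2, the array of highest median, IFIT1 and IFIT5 were 0.29 and 0.20 above their means, and IFIT2 and IFIT3 were 0.19 and 0.04 below.

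Centring each array on its median narrowed the spread of IFIT1 in both genotypes and widened that of IFIT2 and IFIT3 in the knockout, where the SD went from 0.17 to 0.39 and from 0.04 to 0.26. The wild-type values of IFIT1 became 5.91, 5.24 and 5.67 and the knockout values 6.69, 6.89 and 6.99, so that the gap between the genotypes grew from 0.47 to 0.77. For IFIT2, knockout array 2 came to 6.89 beside 7.56 on both other knockout arrays, and the gap shrank from 1.45 to 1.14. For IFIT3 the gap shrank from 1.12 to 0.81. IFIT3 on wild-type array 2 was still the lowest, at 4.13 beside 4.82 and 5.06, and IFIT5 on knockout array 1, at 9.02, still lay below wild-type array 1, at 9.16. The centred differences were 1.25 ± 0.28 for IFIT1, 1.76 ± 0.29 for IFIT2, 1.50 ± 0.33 for IFIT3 and 0.35 ± 0.28 for IFIT5 (SE). After quantile normalization they were 1.30, 1.80, 1.57 and 0.29.

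Leaving out the 2 arrays of highest median gave differences of 1.38 ± 0.33 for IFIT1, 1.96 ± 0.26 for IFIT2, 1.72 ± 0.43 for IFIT3 and 0.45 ± 0.35 for IFIT5 (SE, 2 arrays per genotype). With any 1 array left out, IFIT1 ranged from 1.01 to 1.52, IFIT2 from 1.71 to 1.89, IFIT3 from 1.17 to 1.70 and IFIT5 from 0.24 to 0.61. The lowest values of IFIT1 and IFIT3 were those without wild-type array 2, where these genes were at their lowest. The highest value of IFIT5 was that without knockout array 1.

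**Figure D2:**
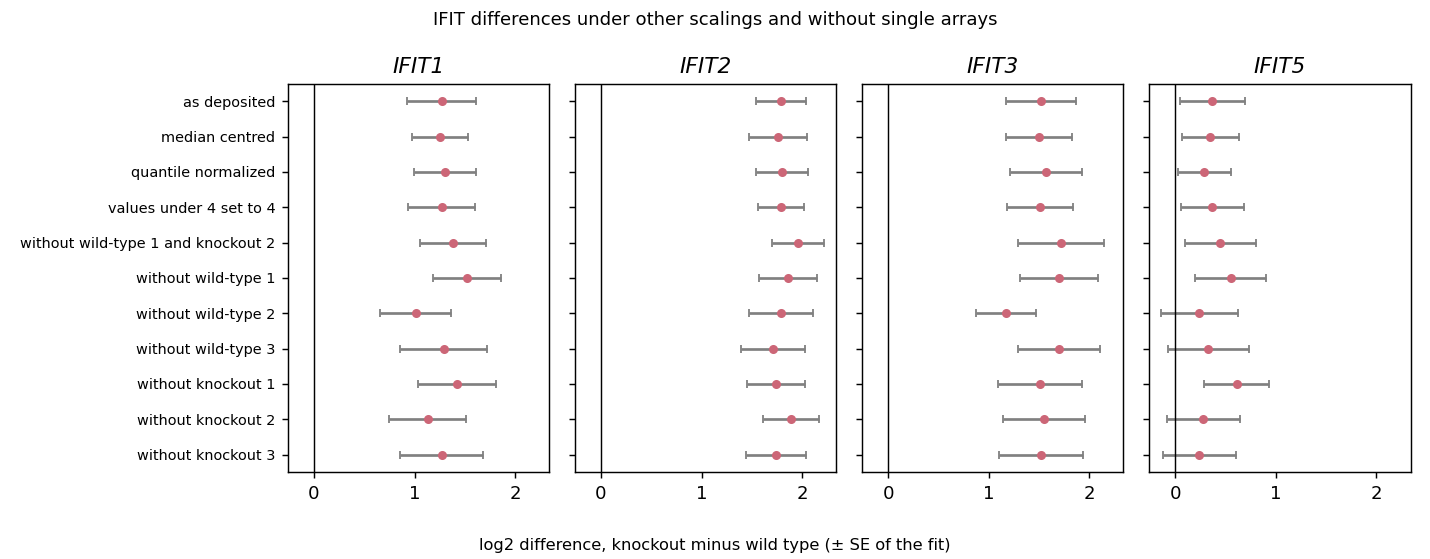
Log2 difference of knockout over wild type ± SE of the fit (horizontal axis), for each IFIT gene as deposited, after other scalings, without both arrays of highest median (wild-type 1 and knockout 2) and without single arrays (vertical axis). IFIT2 stays between 1.71 and 1.96 over these settings, IFIT1 between 1.01 and 1.52 and IFIT3 between 1.17 and 1.72, while IFIT5 stays between 0.24 and 0.61.

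The IFIT genes lie side by side on chromosome 10, in the order IFIT2, IFIT3, IFIT1 and IFIT5 in the RefSeq gene order, and the next comparison asked whether the genes around them differed too. The largest difference in the family belonged to the first gene of the cluster and the smallest to the last, running along the cluster from 1.79 through 1.52 and 1.27 to 0.37, the first 3 of which were not separated beyond their spread. Of the 6 measured genes on either side, the knockout was higher in 7 and lower in 5, the median being 0.16. In limma none of the 12 was called at an adjusted p of 0.05, where 0.57% of all probe sets were called in either direction, and 3 had an unadjusted p under 0.05, where 6.92% of all probe sets had one as higher and 5.28% as lower. With 1 array left out, 0 to 2 of the neighbours did: wild-type array 3 left 0 when dropped, knockout array 3 left 1 and each other array left 2. The same single-factor test without moderation, as the series design names it, called 0 of them as well.

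The gene just before IFIT2, LIPA, which encodes a lysosomal lipase, differed by -0.06 ± 0.47 (SE, adjusted p = 0.968 in limma), and the gene just after IFIT5, the transporter gene SLC16A12, by 0.36 ± 0.36 (adjusted p = 0.723). Farther out before the cluster, the death receptor gene FAS was at -0.42, ANKRD22 at 0.89, the amine oxidase gene RNLS at -0.18, the pseudogene CFL1P1 at 0.09 and ATAD1 at 0.24. After SLC16A12, the differences were 0.37 for FLJ37201, -1.21 for the kinesin gene KIF20B, 0.44 for the serotonin receptor gene HTR7, -0.90 for the ribonuclease P subunit gene RPP30 and 1.43 ± 0.85 (SE) for ANKRD1. ANKRD22 and HTR7, which were higher, and RPP30, which was lower, had no overlap between genotypes, where 12.0% and 7.7% of all probe sets had none in those directions, and for HTR7 the nearest arrays read 7.95 and 7.96. Promoter sequence was at hand for 10 of these 12 neighbours, and 0 held the ISRE core.

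**Figure D3:**
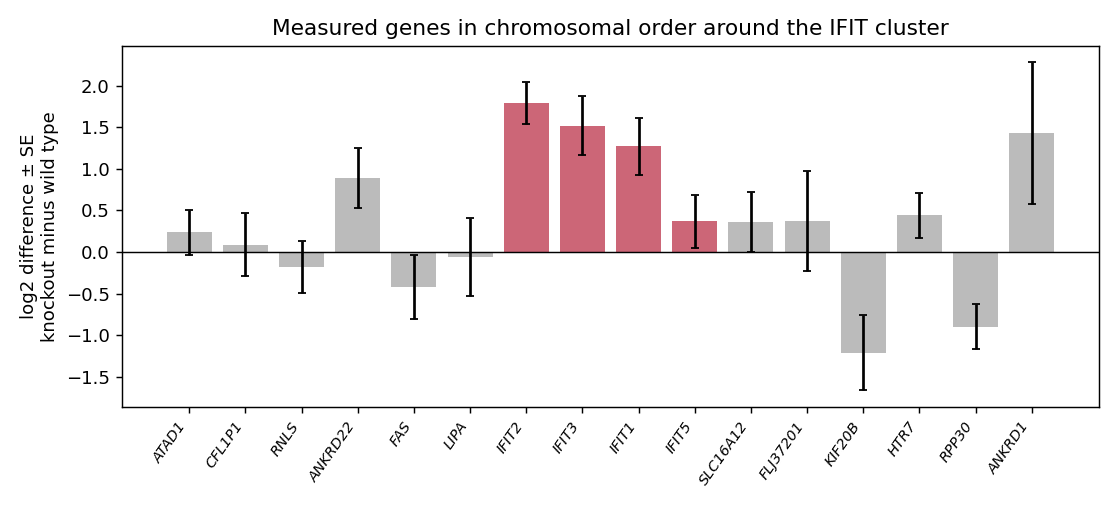
Log2 difference of knockout over wild type (bars, ± SE of the fit) for the IFIT genes (red) and the 6 nearest measured genes on either side (grey), in chromosomal order and not to distance. The 4 IFIT bars run from 1.79 at IFIT2 to 0.37 at IFIT5, and the neighbours run from -1.21 to 1.43.

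The profile of the family over the 6 arrays was set against all other genes. Each gene was centred on its mean over the arrays, the family profile was the mean of the 4 members, and likeness was the root mean square (RMS) difference in log2 units over the 6 arrays, a measure that also depends on how far a gene varies. The family profile stood at -0.29, -0.99 and -0.58 in wild type and at 0.46, 0.68 and 0.72 in knockout. IFIT1 was the member nearest to the mean of the other members, at 0.198, and 74 of 13135 other genes were nearer to that mean. IFIT3 followed at 0.339, with 707 genes nearer, then IFIT2 at 0.487, with 2357, and IFIT5 at 0.618, with 1954. The 10 genes outside the family with the smallest RMS difference from its profile ran from 0.0829 for LMO7, a LIM domain gene, to 0.142 for FAM167A. Between them came the arylsulfatase gene ARSD, the fructose bisphosphatase gene TIGAR, the Rab effector gene RILP, the interferon regulatory factor gene IRF1 (0.126), the growth factor gene PDGFC, the corepressor gene TLE1, RCAN2 and HSD17B14. Their differences lay between 1.05 and 1.37. Differences of about this size follow from the choice, since the profile used to pick these genes itself rose in the knockout. IRF1 was the single one of these genes that also stood in a list of interferon pathway genes. Of the 6 with promoter sequence, 1, RCAN2, held the ISRE core.

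**Figure D4:**
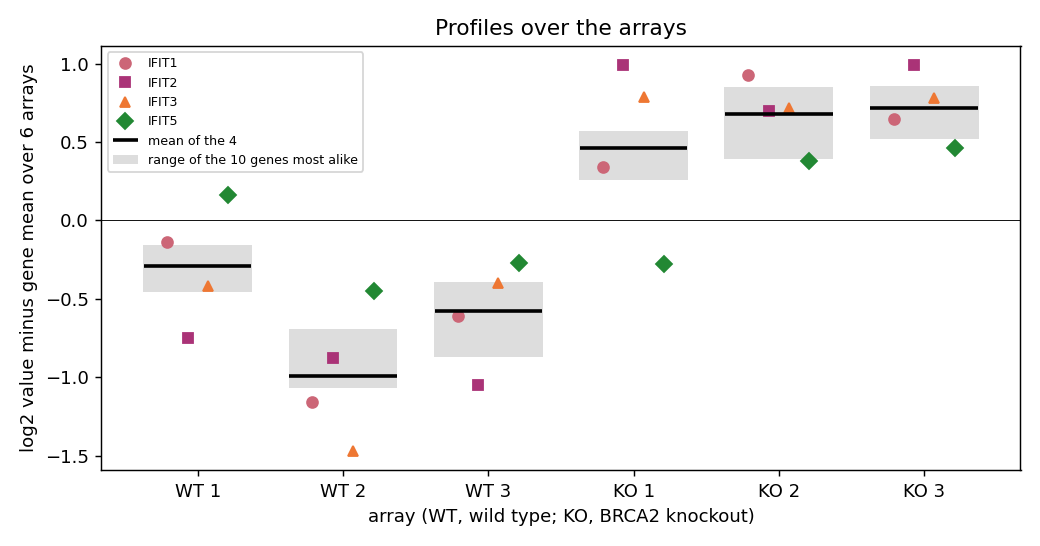
Log2 value minus each gene's mean over the 6 arrays (vertical axis) on every wild-type (WT) and knockout (KO) array, for the 4 IFIT genes (points), their mean (black line) and the 10 genes most like that mean (grey, lowest to highest). IFIT5 is at -0.28 on knockout array 1, where IFIT2 is at 0.99.

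The genes that act before and beside the IFIT genes were followed through lists of the pathway, by the same fit. Of the ligands, 4 of 15 interferon genes were measured, 2 higher and 2 lower. They were IFNG (-1.92 ± 0.95, SE), IFNE (-0.26), IFNA8 (0.20) and IFNA2 (0.00), and the arrays overlapped for each. IFNG read 4.56, 5.96 and 4.19 in wild type and 3.86, 4.31 and 0.79 in knockout, so its difference leaned on knockout array 3. The mean of the 4 genes per array was low, from 4.19 to 4.83 in wild type and from 3.43 to 4.42 in knockout. Of 9 receptors and transducers, 4 were higher, with a median of -0.16. IRF9, a DNA-binding factor of the interferon response, read 8.56, 7.86 and 8.28 in wild type and 9.09, 9.27 and 9.16 in knockout, a difference of 0.94 ± 0.28 (SE, adjusted p = 0.240 in limma). The kinase genes JAK2 and TYK2 were at -1.64 (adjusted p = 0.219) and -0.43, and the receptor gene IFNAR2 at 0.63. The genotypes did not overlap for IRF9, which was higher, and for JAK2 and TYK2, which were lower, that is 1 and 2 of 9 genes, where 12.0% and 7.7% of all probe sets did.

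Of 17 genes that sense RNA or DNA and relay the signal, 10 were higher, with a median of 0.37. The knockout arrays lay above all wild-type arrays for 6, or 35.3%, and below for 0, where 12.0% and 7.7% of all probe sets did. The largest differences were in the RNA receptor gene TLR3 (1.26), the DNA sensor genes IFI16 (-0.97) and CGAS (-0.94) and the kinase gene IKBKE (0.91). The genotypes overlapped for IFI16 and CGAS and not for TLR3 and IKBKE. Of 7 interferon regulatory factors, 5 were higher (median 0.38). IRF1 read 8.23, 7.89 and 8.07 on the wild-type side and 9.06, 9.51 and 9.36 on the knockout side, a difference of 1.25 ± 0.26 (SE, adjusted p = 0.125), and IRF7, IRF3 and IRF2 were at 0.62, 0.60 and -0.58. Feedback inhibitors had 6 of 10 members higher (median 0.17), with SOCS3 at -1.14, the ubiquitin-like modifier gene ISG15 at 0.93, SOCS1 at 0.70 and the phosphatase gene PTPN1 at 0.52.

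Among 42 other antiviral interferon-stimulated genes, the knockout was higher in 29 and lower in 13, and the median was 0.35 beside 1.40 for the IFIT genes and 0.02 for all probe sets. The knockout arrays lay above all wild-type arrays for 13 of them, or 31.0%, where 12.0% of all probe sets did, and below for 1, where 7.7% of all probe sets did. A median of this size was not particular to these genes. The cell type markers described below had medians of 0.42 (blood), 0.36 (fibroblast and endothelium) and 0.33 (epithelium). All knockout arrays lay above all wild-type arrays for 14.3%, 12.5% and 40.0% of these 7, 8 and 10 markers. IFI44 was the member called: it read 1.77, 1.65 and 2.09 in wild type and 4.64, 6.16 and 4.42 in knockout, and rose by 3.24 ± 0.48 (SE, adjusted p = 0.0459). That call was lost in 11 of 13 alternatives, among them 5 of the 6 that leave out 1 array, and was kept with median centring (adjusted p = 0.0208) and without knockout array 2 (0.0339). The highest adjusted p, 0.380, came with values under 4 set to 4, where the difference was 1.07. The other members of largest difference were the ubiquitin ligase gene HERC5 (-1.53), OASL (1.48) and IFI27 (1.47). Without the 2 arrays of highest median, 30 of the 42 were higher. Both remaining knockout arrays lay above both remaining wild-type arrays for 17, or 40.5%, where 23.2% of all probe sets did. They lay below for 7, where 4685 of all 19458 probe sets did. The ISRE core stood before 21 of the 35 with promoter sequence, or 60.0%. The 21 with a match had a median difference of 0.42 and the 14 without a match 0.37.

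IFIT proteins act on cap-dependent translation, and 2 lists covered that machinery. Of 10 subunits of the initiation factor eIF3, which IFIT1 and IFIT2 bind, 3 were higher (median -0.11). The largest differences were in EIF3E (-0.57), EIF3B (0.55), EIF3K (-0.20) and EIF3D (-0.15). Of 9 genes of cap formation and cap binding, 5 were higher (median 0.09), with the capping enzyme gene RNGTT at -1.10, the cap methyltransferase genes PCIF1 and CMTR2 at -0.82 and -0.55 and the cap-binding gene EIF4E at 0.53. PCIF1 and CMTR2 were the 2 of 9 whose knockout arrays all lay below the wild-type arrays, where 7.7% of all probe sets did. Over the 8 lists, limma called 1 of 108 genes higher and 0 lower, where 0.416% and 0.154% of all probe sets were called, and the test without moderation called 0. At an unadjusted p under 0.05 there were 19 higher and 4 lower, where 6.92% and 5.28% of all probe sets were. Without knockout array 2 these counts were 11 and 11. Leaving out each of the other arrays in turn gave 10 to 23 higher and 1 to 4 lower, the lowest count of higher genes (10, beside 3 lower) with wild-type array 2 dropped and the highest (23, beside 1 lower) with knockout array 1 dropped.

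**Figure D5:**
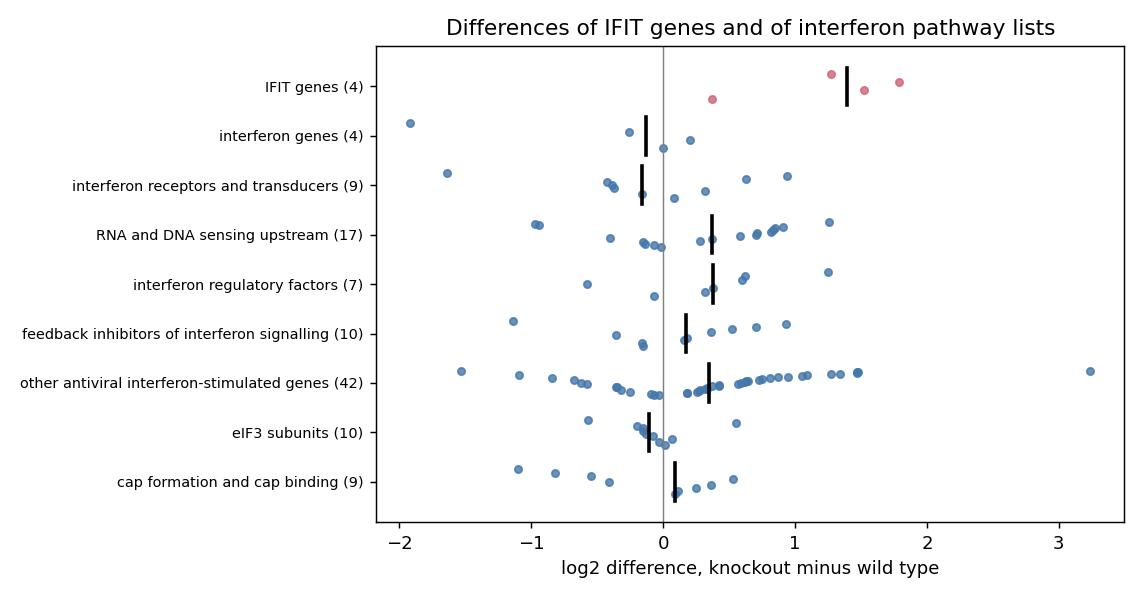
Log2 difference, knockout minus wild type (horizontal axis), of the 4 IFIT genes (red) and of the measured genes of each list (blue, number in brackets), with the median as a black bar. The IFIT median is 1.40, the medians of the lists lie between -0.16 and 0.38, and the point at 3.24 is IFI44.

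Blood cells, which express IFIT genes strongly after interferon, were checked through markers. Of 12 such markers, 7 were measured, 5 higher and 2 lower, with 0 called in limma and 0 with an unadjusted p under 0.05. Their mean per array ran from 6.00 to 6.69 in wild type and from 6.11 to 6.73 in knockout, ranges that overlapped, and PTPRC, the pan-leukocyte marker, was at 5.37 ± 0.59 and 5.87 ± 0.68 (SD, n = 3). The deposited values carry no detection call, so no marker could be read as absent. Of 10 fibroblast and endothelial markers, 8 were measured and 7 were higher, with COL1A1 at 1.10 (adjusted p = 0.159), and their mean per array ran from 5.84 to 6.68 and from 6.09 to 6.99. The epithelial markers were higher in 9 of 10 cases, by a median of 0.33 and by 1.15 (adjusted p = 0.127) for CDH1, and their mean ran from 8.57 to 8.88 and from 8.86 to 9.38. The part of any of these in the IFIT differences was not tested.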

How the data were processed

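Total RNA from HCT116 cells was depleted of ribosomal RNA, labelled with biotin and hybridised to Affymetrix arrays, 3 per genotype, per the labels' protocols. The deposited values are log2 probe set summaries. Per the submitters' processing notes, the authors used RMA, R 2.11.1 and hg18, and the steps run within RMA are not stated there. That the scale is log2 follows from the span of the values, and array medians differ.

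Gene names came from the platform annotation, with symbols updated through RefSeq (GRCh38.p14). Of 13301 probe sets with 1 symbol, 13280 matched by gene identifier. Where a gene had several, the one of highest mean was taken. No filter, pseudocount or rescaling was applied. All 6 arrays entered 1 limma fit (version 3.58.1, R 4.3.3) with genotype as the factor, with Benjamini-Hochberg adjustment across 19458 probe sets. The code was tested on simulated data. Precision is limited by the number of arrays. Since the labels call the arrays technical replicates, the SE and p of the fit may measure the spread between arrays and not that between separate cultures.

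The members and the lists were chosen with earlier results of these data known. Named genes were the members, the called and the 4 most different genes of each list, 6 neighbours on either side and the 10 genes most alike. Other genes, namely CDH1, COL1A1 and further markers, and the split of antiviral genes by motif were added after values were seen. No 2 arrays held identical values.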

Additional observations from a re-analysis of the deposited data

How the results depend on the processing

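The IFIT differences kept their sign in all 13 alternative fits for IFIT1 (1.01 to 1.52) and IFIT3 (1.17 to 1.72) and in all 14 for IFIT2 (1.71 to 1.96) and IFIT5 (0.24 to 0.61). For some of these fits that was fixed in advance. The replicate block, the variance trend and the test without moderation change the SE and not the difference. A filter on the dimmest 30% of probe sets likewise leaves the difference of a kept gene as it was. IFIT1 and IFIT3 are among the dimmest 30% of probe sets and had no value under that filter. Without the 2 arrays of highest median, the difference of IFIT2 went from 1.79 ± 0.25 to 1.96 ± 0.26 (SE). The number of members called higher in limma was 1 of 4 as deposited, where 0.416% of all probe sets were. It was 0 with any 1 array left out, without both arrays of highest median and with the replicate number as a block. Since the family was chosen from this comparison, these counts carry no weight as evidence. Over all probe sets, 81 were called higher and 30 lower. With 1 array left out the counts were 22 to 39 and 1 to 26, without both arrays of highest median 5 and 2, and with the replicate block 3 and 0. Median centring gave 58 lower, quantile normalization 53 lower, the floor of 4 125 higher, the filter 142 higher, a variance trend 263 higher and 133 lower, and the test without moderation 16 lower. Of the pathway lists, 1 gene was called. The count was 0 to 1 with 1 array left out, 2 after median centring (IFI44 and OASL), 2 with a variance trend (IRF1 and OASL), and 0 with the floor of 4, the replicate block, the test without moderation and without both arrays of highest median. The filter left 17 other antiviral genes higher, since it tested 77 of 108 list genes. With the floor, the list genes with an unadjusted p under 0.05 numbered 20 higher and 4 lower, with the block 9 and 3, without moderation 21 and 2, without both arrays 13 and 8, without knockout array 2 11 and 11, and without each other single array 10 to 23 and 1 to 4. Apart from the filter, which tests fewer genes, the cause of these changes was not tested. The neighbours had 0 called in limma as deposited and in each of the 13 alternatives that held all 12, with 0 to 3 at an unadjusted p under 0.05. Same-numbered arrays of the genotypes did not deviate together (r = -0.238, -0.427 and 0.0582 across probe sets). Wild-type array 1 went best with knockout array 2 (r = 0.489). These values gave no sign that the numbers pair the arrays. They cannot exclude it, since the deviations within a genotype are tied to each other. Values near the bottom of the scale, such as IFI44 in wild type, are poorly determined.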
